A study of Mus musculus with 2 samples.

Results

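Mmp12, Mmp9, Mmp13, Mmp14 and Adamdec1 are 5 genes for secreted or membrane-bound metalloproteinases, out of 32289 gene features measured. They were taken by symbol as a set in which earlier results of these data had shown large differences between gated cells. Their levels in the gated classes below are therefore a description and carry no test. The RNA came from 1 pool of cells of mice with the Gm38411-iCre-hCD2 genotype, aged 15 days, with no treatment. The cells had been sorted as CD3-B220-CD11c+MHC-II+ from mesenteric lymph nodes (mLN) and small-intestinal lamina propria (siLP), for a series about Rorγt-positive dendritic cells (DCs) and the response to oral antigens. Every group carried the same genotype, and the labels name no mouse without the reporter. Replicates were marked with 6 hashtag antibodies (hashtags 2, 4, 5, 6, 8 and 9), 3 for each tissue, but a hashtag's tissue is not given in the labels used here. No tissue was therefore compared, and each hashtag is given by its number.

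Matrix metalloproteinases are zinc enzymes that are made as inactive precursors and cut components of the extracellular matrix, cytokines and cell-surface proteins. Mmp12 (macrophage metalloelastase) cuts elastin. Mmp9 (gelatinase B) cuts denatured collagen and collagen of basement membranes, Mmp13 (collagenase-3) cuts fibrillar collagen, and Mmp14 is anchored in the membrane, where it cuts collagen and activates the Mmp2 precursor. Adamdec1 belongs to the ADAM family, has an unusual zinc-binding site, and is known from macrophages and fibroblasts of the gut. The lamina propria holds both macrophages and DCs, which share some surface markers.

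Mmp13 and Mmp12 are neighbours on chromosome 9, and their levels parted between the cell classes described below, so a stretch before a start of each is shown. For Mmp12 this is the second start, which lies inside the gene span. The stretch before its first start is described and not printed. On the GRCm38 build, Mmp13 (ENSMUSG00000050578) spans chr9:7272514-7283331 and Mmp12 (ENSMUSG00000049723) spans chr9:7344381-7369499, both on the plus strand, with 61049 bases between them. Mmp9 (ENSMUSG00000017737) lies at chr2:164940780-164955850 on the plus strand. Mmp14 (ENSMUSG00000000957) lies at chr14:54431612-54445364 on the plus strand. Adamdec1 (ENSMUSG00000022057) lies at chr14:68563380-68582095 on the minus strand. RefSeq promoter entries (GRCm38.p6) were matched for 3 of the 5 genes. Below are the 100 bases before the Mmp13 start at 7272514 (chr9:7272414-7272513), before the second Mmp12 start at 7347374 (chr9:7347274-7347373) and before the Mmp14 start at 54431598 (chr14:54431498-54431597), plus strand, with a TGACTCA match on either strand (TGAGTCA on the other) in capitals.
Mmp13: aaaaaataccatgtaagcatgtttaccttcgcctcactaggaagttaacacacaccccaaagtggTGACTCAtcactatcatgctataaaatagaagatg
Mmp12: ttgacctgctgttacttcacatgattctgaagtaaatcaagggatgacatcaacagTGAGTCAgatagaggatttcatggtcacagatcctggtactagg
Mmp14: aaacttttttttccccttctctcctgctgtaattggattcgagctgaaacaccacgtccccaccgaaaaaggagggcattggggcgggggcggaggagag
TGACTCA is the motif bound by AP-1, the Fos and Jun family of factors. It stood at -35 to -29 from the Mmp13 start and at -44 to -38 from the second Mmp12 start, and 4.46% of all 32851 promoter entries hold it on either strand within 250 bases before the start. In the same window Mmp13 also held AACCACA, a Runx motif (-119 to -113), and AGGAAGT, an Ets motif (-62 to -56), which 4.396% and 7.69% of entries hold on either strand. The window before the first Mmp12 start, at 7344397, held the Ets motif only, as ACTTCCT at -88 to -82. No letters of these 3 motifs were found within 250 bases before the Mmp14 start. A match of letters is a description of the sequence and not a bound site.

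Of the other metalloproteinase genes in this stretch of chromosome 9, Mmp20 held 211 unique molecular identifiers (UMIs, counted transcript molecules) over all cells, Mmp7 held 29, Mmp1b 17, Mmp10 13, Mmp8 7, Mmp27 1 and Mmp3 0. Mmp12 held 82416 and Mmp13 held 3776. Beside Adamdec1 on chromosome 14, Adam28 held 26 UMIs and Adam7 held 0.

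Cells were placed by raw UMIs in the first gate they passed, and 15480 cells with a single hashtag passed the quality limits. The Prdm16 class (at least 5 UMIs, a gene that marks Rorγt-positive DCs) held 137 cells and the C1q class (C1qa, C1qb and C1qc together at least 10, macrophage genes) held 341. The Xcr1/Clec9a class (at least 3, conventional type 1 DC genes) held 2190 and the Fscn1 class (at least 3, a gene of migratory DCs) held 1148. Of the rest, the Mgl2 class (at least 3) held 403 cells, the Plet1 class (at least 3) held 1821, cells that passed both held 268, the Sirpa-only class (at least 2) held 4370, and 4802 passed no gate. Hashtags 6, 8 and 9 held 338 of the 341 C1q class cells (75, 112 and 151). They held all but 4 of the 1821 Plet1 class cells (442, 445 and 930). Totals per hashtag ran from 11673390 to 63633888 UMIs, with medians per cell of 6224 to 6564 in hashtags 2, 4 and 5. In hashtags 6, 8 and 9 the medians were 12000 to 12942. Levels are CPM, the UMIs of a gene per 1000000 UMIs, summed over a class in a hashtag. They were counted at the 3′ end, so they are compared between classes within a gene and not between genes. DC markers (Itgax, H2-Ab1, Cd74, Flt3 and Zbtb46 together) were high in all classes, between 5141 and 22547 CPM. The C1q class carried 9 macrophage markers at a summed 5529 to 6082 CPM, against at most 525 CPM in any other class. It held Flt3 at 52.1 CPM and Zbtb46 at 54.9 CPM as well. No doublet caller was run. Barcodes that the authors called multiplets were left out, and 84 cells passed more than 1 lineage gate.

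Mmp12 was highest in cells that carried Plet1, Mgl2 or both, and low in Xcr1/Clec9a cells. In cells positive for both Mgl2 and Plet1, Mmp12 stood at 1517, 1326 and 1291 CPM in hashtags 6, 8 and 9. In the Plet1 class it stood at 853, 1123 and 1027 CPM, and in the Mgl2 class at 1004, 943 and 853 CPM, so these classes overlapped each other. The Sirpa-only class held 126, 97.2, 84.2, 490, 727 and 583 CPM in hashtags 2, 4, 5, 6, 8 and 9. Cells positive for both genes did not overlap the Plet1, Mgl2 or Sirpa-only class, whereas the Sirpa-only class overlapped the C1q class, at 391, 621 and 472 CPM in hashtags 6, 8 and 9.

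In the Xcr1/Clec9a class, Mmp12 stood at 20.5, 26.95, 22.7, 46.8, 48.7 and 64.7 CPM in hashtags 2, 4, 5, 6, 8 and 9. In every hashtag this was below the Sirpa-only class. The Fscn1 class held 38.8, 37.2, 33.5, 381, 469 and 208 CPM in the same order of hashtags. The Prdm16 class held 29.3, 36.5, 55.0, 18.3 and 242 CPM in hashtags 2, 4, 5, 6 and 9. Of the 150 UMIs in hashtag 9, 77 lay in 1 cell, and without that cell the level was 127 CPM. The Mgl2 class held 44.97 CPM in hashtag 2 from 14 cells and 273 CPM in hashtag 4 from 27 cells.

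**Figure D1:**
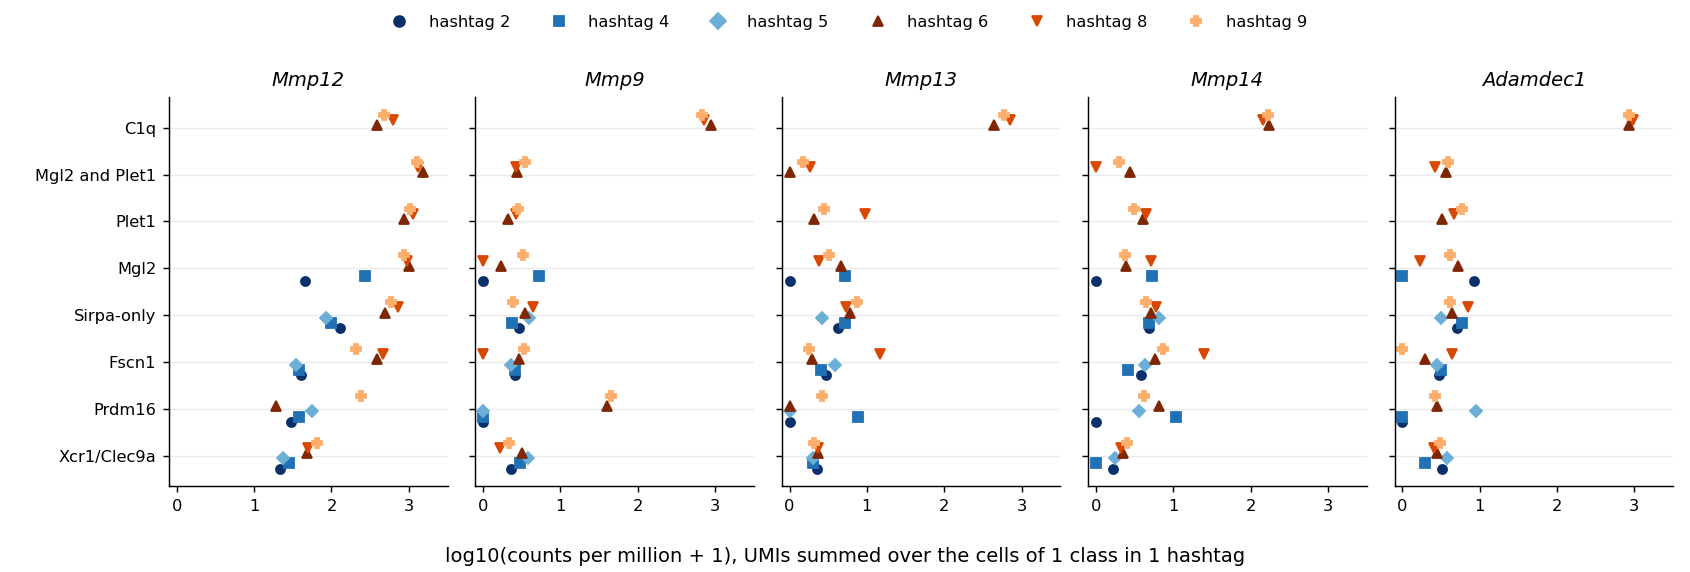
Level of each of the 5 genes, as log10(CPM + 1) on the horizontal axis, in 8 cell classes (rows), with 1 point per hashtag that held at least 10 cells of the class. Mmp9, Mmp13, Mmp14 and Adamdec1 stand far to the right only in the C1q row, except for Mmp9 in 2 hashtags of the Prdm16 row, while Mmp12 is spread over the Sirpa, Mgl2, Plet1 and C1q rows and, in hashtags 6, 8 and 9, the Fscn1 row.

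Mmp12 was unevenly spread over single cells. In cells positive for both Mgl2 and Plet1 the median was 13, 14.5 and 14 UMIs per cell in hashtags 6, 8 and 9, and 42.3%, 35.5% and 36.4% of cells held at least 20. In the Plet1 class the medians were 4, 6 and 5 UMIs and 21.5%, 26.5% and 26.7% of cells held at least 20, with a highest cell of 219. The Sirpa-only class had medians of 1, 2 and 1 UMIs there, and 9.27%, 15.2% and 12.5% of cells held at least 20. Of 1320 cells with at least 20 Mmp12 UMIs, 461 were in the Plet1 class, 367 in the Sirpa-only class, 229 passed no gate and 16 were in the Xcr1/Clec9a class. In the Fscn1 class, 3 of 67, 2 of 20 and 3 of 82 cells held at least 50% of the Mmp12 UMIs of hashtags 6, 8 and 9. The C1q class was also divided: 45.3%, 58.0% and 46.4% of its cells held no Mmp12 UMI, while 10.7%, 14.3% and 14.6% held at least 20.

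**Figure D2:**
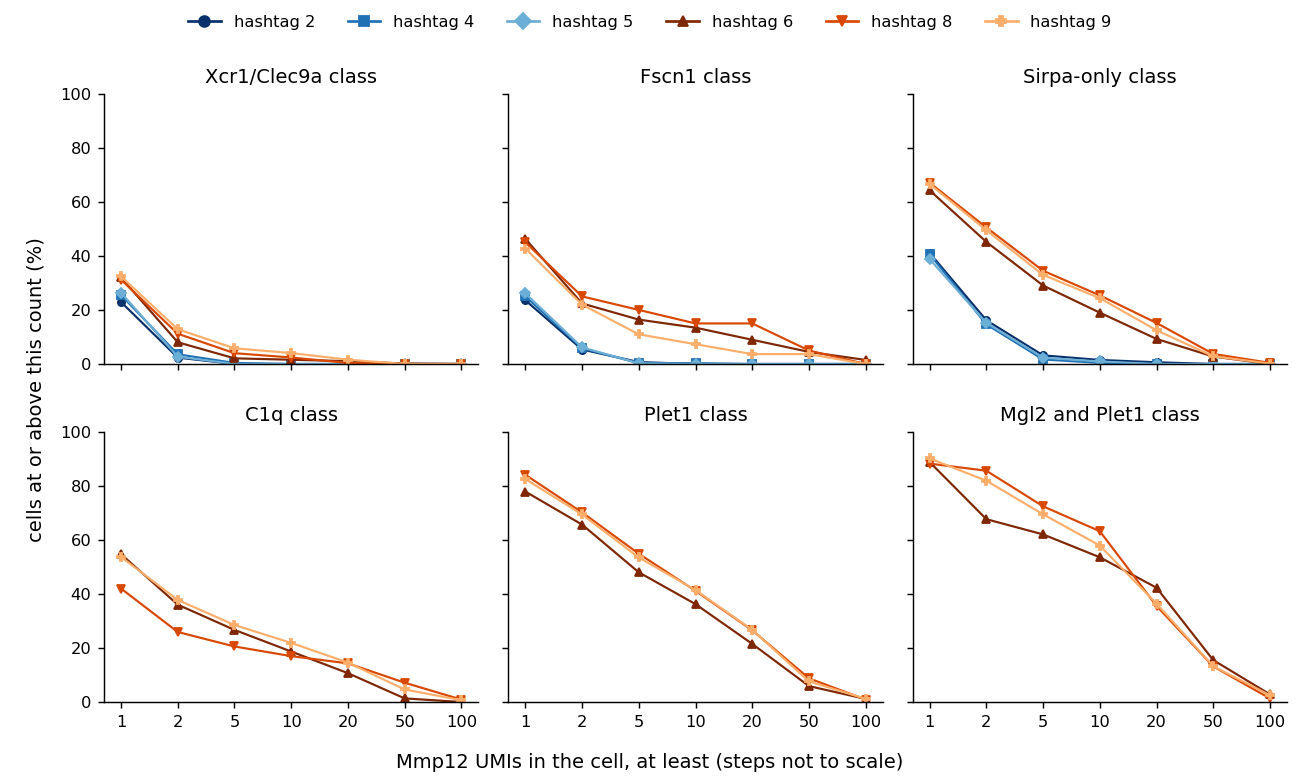
Share of cells (vertical axis, %) that held at least the number of Mmp12 UMIs on the horizontal axis, in 6 classes, with 1 line per hashtag. In the Plet1 class 21.5% to 26.7% of cells reach 20 UMIs, against at most 1.58% in the Xcr1/Clec9a class.

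Free RNA could add to the low Mmp12 values, and its part in them was not tested. Barcodes with at most 100 UMIs held Mmp12 at 384 CPM, Mmp9 at 27.7 CPM, Mmp13 at 22.4 CPM, Mmp14 at 8.22 CPM and Adamdec1 at 28.2 CPM. T cells (ungated cells with at least 3 Cd3 UMIs), which should lack Mmp12, held 19.4, 33.9 and 25.2 CPM in hashtags 2, 4 and 5, where 222 of the 231 such cells lay. The 2 T cells of hashtag 6 and the 7 of hashtag 9 held 88.1 and 91.6 CPM, from 1 and 6 UMIs. Cells were also thinned to 2000 UMIs each, leaving out shallower ones (1 of 2190 in the Xcr1/Clec9a class, 51 of 4370 in the Sirpa-only class, 3 of 1821 in the Plet1 class). A Mmp12 UMI then remained in 4.33% of T cells (95% exact binomial interval 2.10% to 7.82%) and in 6.08% of the Xcr1/Clec9a class (5.11% to 7.16%). Before thinning, these shares were 16.9% and 29.5%, at median depths of 6982 and 16528 UMIs. The intervals of the 2 shares overlap, and by hashtag the Xcr1/Clec9a share ran from 4.35% in hashtag 2 to 10% in hashtag 8 (6.58% to 14.4%). After thinning, 16.8%, 17.4%, 16.3%, 36.9%, 41.5% and 36.2% of Sirpa-only cells held Mmp12 in hashtags 2, 4, 5, 6, 8 and 9. In the Plet1 class 48.3%, 59.9% and 54.1% did so in hashtags 6, 8 and 9. These intervals cover counting error only.

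Mmp9, Mmp13, Mmp14 and Adamdec1 were concentrated in the C1q class, which was 2.20% of the cells and held 89.99% of all Mmp9 UMIs, 83.6% of Mmp13, 62.5% of Mmp14 and 87.9% of Adamdec1. By contrast it held 3.22% of the Mmp12 UMIs. The gelatinase gene Mmp9 stood at 884, 722 and 670 CPM in the C1q class in hashtags 6, 8 and 9, against 2.496, 3.41 and 1.46 CPM in the Sirpa-only class. The collagenase gene Mmp13 stood at 434, 713 and 591 CPM, against 5.08, 4.43 and 6.56 CPM. No value of the C1q class overlapped a value of the Sirpa-only class for either gene.

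Mmp14, the membrane-anchored activator of Mmp2, stood at 171, 144 and 166 CPM in the C1q class and at 4.13, 5.00 and 3.48 CPM in the Sirpa-only class. Adamdec1 stood at 860, 963 and 852 CPM in the C1q class and at 3.44, 6.02 and 3.08 CPM in the Sirpa-only class. The 3 C1q libraries lay close together for Mmp14 and Adamdec1. The smallest Mmp13 value, in hashtag 6, was apart from the other two. In the Plet1, Mgl2, Fscn1 and Xcr1/Clec9a classes all 4 genes stood at 23.9 CPM or less in each hashtag. Counting intervals for the C1q class were narrow, for example 831 to 940 CPM for Mmp9 in hashtag 6 from 1037 UMIs (95% exact Poisson).

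Some of the higher stray values rested on single cells. In hashtag 8, 1 Plet1 class cell held 35 of the 51 Mmp13 UMIs, and 1 Fscn1 class cell held all 4 Mmp13 and all 7 Mmp14 UMIs. Of the markers of neutrophils, another known source of Mmp9, S100a8, S100a9 and Ly6g were at 0 UMIs in the C1q class and Csf3r was at 42.6 CPM, and the list of 5 summed to 39.3 to 48.6 CPM. Fibroblasts, a known source of Mmp13, Mmp14 and Adamdec1, had their 5 markers at a summed 2.56 to 9.35 CPM in the C1q class, with Pdgfra at 0. The 4 monocyte markers summed to 392 to 499 CPM in the C1q class, with Plac8 at 369 CPM, Fcgr1 (also in the macrophage list) at 68.4 CPM, Ccr2 at 17.0 CPM and Ly6c2 at 0. In the Sirpa-only class they summed to 557 to 1433 CPM. The part of such cells in the result was not tested.

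Most C1q class cells held several of the 4 genes at the same time. All 4 were detected in 58.7%, 58.9% and 65.6% of the cells in hashtags 6, 8 and 9, and none was detected in 2 of 341 cells. Adamdec1 was detected in 96.2% of C1q class cells, Mmp9 in 86.8%, Mmp14 in 80.6%, Mmp13 in 76.8% and Mmp12 in 49.9%. Among C1q class cells with Mmp9, 81.8% also held Mmp13, against 44.4% of those without Mmp9. This share and those of Adamdec1 that follow are of cells at full depth, and the part of cell depth in them was not tested. Adamdec1 was found in 98.6% of the cells with Mmp9 and in 80% of those without. It was found in 95.9% of the cells with Mmp12 and in 96.5% of those without, but with detection at 96.2% over all C1q class cells there was little room for a difference. Thinned to 2000 UMIs, the shares in the C1q class were 75.1% for Adamdec1, 60.5% for Mmp9, 49.9% for Mmp13, 25.2% for Mmp14 and 24.3% for Mmp12, while no thinned T cell held Mmp9 or Mmp14 (0 of 231 cells, 95% exact binomial upper bound 1.58%).

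**Figure D3:**
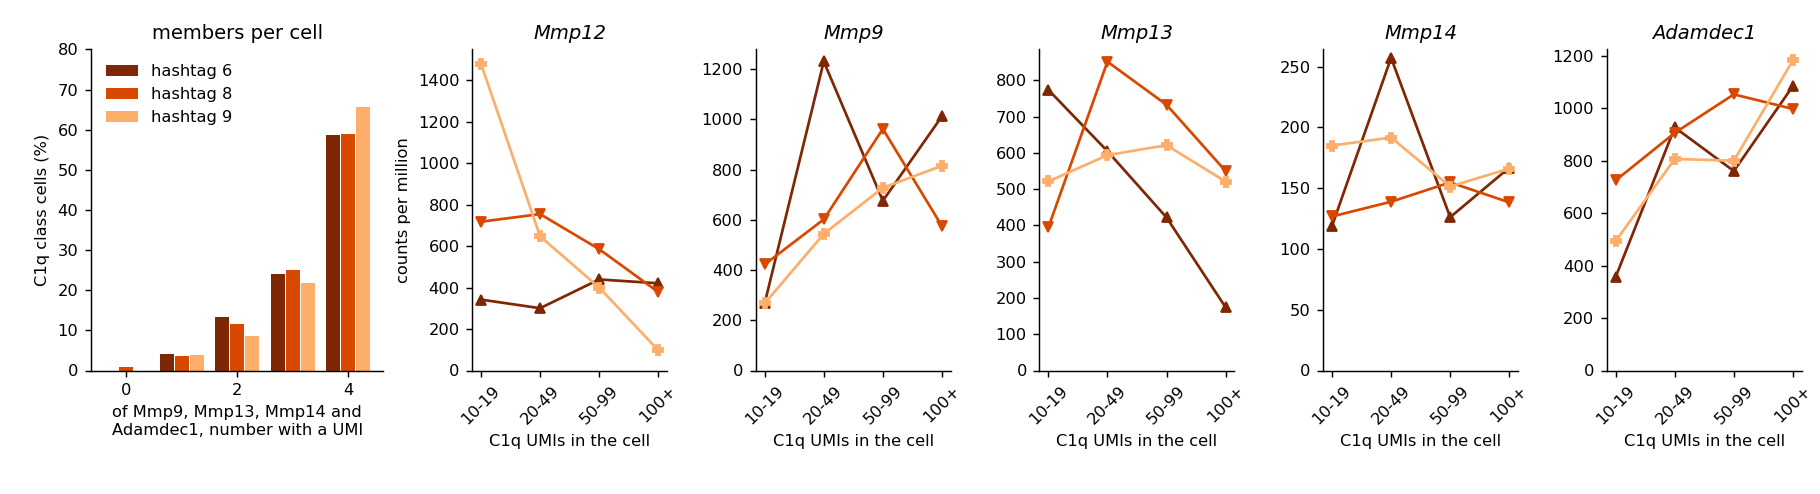
C1q class cells of hashtags 6, 8 and 9. Bars give the share of cells (%) by how many of Mmp9, Mmp13, Mmp14 and Adamdec1 had a UMI, and lines give the level of each gene (CPM) in cells grouped by their C1q UMIs, where the sets hold 8 to 62 cells and Adamdec1 is lowest at 10 to 19 C1q UMIs in all 3 hashtags.

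Within the C1q class, Adamdec1 stood at 357, 725 and 494 CPM in cells with 10 to 19 C1q UMIs and at 1085, 998 and 1184 CPM in cells with 100 or more (hashtags 6, 8 and 9). Mmp9 went from 268, 423 and 267 CPM to 1013, 575 and 816 CPM between the same sets of cells. It was highest between them in hashtag 6 (1231 CPM at 20 to 49 C1q UMIs) and hashtag 8 (962 CPM at 50 to 99). Mmp13 went from 774, 394 and 521 CPM to 174, 550 and 521 CPM. Mmp14 went from 119, 127 and 185 CPM to 167, 138 and 166 CPM, and neither had a common direction. Mmp12 had no common order: it stood at 342, 718 and 1481 CPM in the cells with least C1q and at 421, 379 and 97.5 CPM in those with most. The sets with least and most C1q hold 8 to 23 cells per hashtag. Their median depth differed, from 6716 to 18927 UMIs over all hashtags. C1q class cells were also set apart by the DC genes Flt3 and Zbtb46. Cells without a UMI of either held Mmp9 at 1259, 871 and 969 CPM and Adamdec1 at 1035, 1130 and 1230 CPM. Cells with at least 2 held Mmp9 at 425, 409 and 384 CPM and Adamdec1 at 649, 620 and 495 CPM, and were lower in each hashtag. The second set was deeper, with medians of 23257 to 30080 UMIs against 10135 to 11698, and the part of depth or of doublets in this difference was not tested.

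The gate on C1q was not a sharp edge for these genes. The 17 cells just outside it held Mmp9 at 125 CPM, Mmp13 at 187 CPM, Mmp14 at 62.4 CPM and Adamdec1 at 319 CPM. The 10 cells just inside it held 163, 347, 122 and 306 CPM of the same genes. Beyond the C1q class, 13 of 15139 cells held at least 3 of the 4 genes with 2 or more UMIs each, and 10 of these 13 had 3 to 9 C1q UMIs. For Mmp12, the cells just outside and just inside the Plet1 gate held 691 and 927 CPM, those at the Mgl2 gate 981 and 955 CPM, and those at the Sirpa gate 533 and 622 CPM. All edge cells were taken over all classes and hashtags together, so they are not edges of the separate classes. Those at the Mgl2 gate also held Adamdec1 at 139 and 118 CPM.

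Mmp9 was also found in the Prdm16 class, in some hashtags and not in others. It was at 38.5 CPM in hashtag 6 (21 UMIs in 7 of 23 cells) and at 43.6 CPM in hashtag 9 (27 UMIs in 8 of 25 cells). In hashtags 2, 4 and 5 it was not detected in 27, 26 and 32 cells, where 3 counts would be 10.97, 9.95 and 7.85 CPM. The 4 Prdm16 class cells of hashtag 8 held 1 UMI. The 16 Mmp9-positive cells had at most 1 C1q UMI each, the highest of them held 10 Mmp9 UMIs, and 14 of the 15 in hashtags 6 and 9 failed the Fscn1 gate. Of all Prdm16 class cells there, 18 of 23 in hashtag 6 and 18 of 25 in hashtag 9 failed that gate. Neutrophil markers reached at most 10.5 CPM in the Prdm16 class. Before thinning, 11.7% of Prdm16 class cells and 2.60% of T cells held Mmp9, at median depths of 14417 and 6982 UMIs. After thinning, 4 of 25 cells in hashtag 9 held Mmp9 (16%, 95% exact binomial interval 4.54% to 36.1%), and none of the 23 cells in hashtag 6 (0% to 14.8%). The interval of the T cells, at 0 of 231, was 0% to 1.58%. These intervals cover counting error over cells only and not the spread between hashtags. Most of the T cells lay in hashtags 2, 4 and 5. In hashtag 9, at full depth, 7 T cells held Mmp9 at 30.5 CPM from 2 UMIs, and 2 T cells of hashtag 6 held 0. Over all hashtags the thinned share was 2.94% (0.807% to 7.36%).

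As fitted differences against the Sirpa-only class within hashtags, the C1q class was higher by 8.12 ± 0.42 for Mmp9, 7.78 ± 0.31 for Adamdec1, 6.67 ± 0.35 for Mmp13 and 5.00 ± 0.27 for Mmp14 (log2, SE, 3 hashtag pairs). Mmp12 differed by -0.21 ± 0.42. The Xcr1/Clec9a class differed by -2.81 ± 0.37 for Mmp12, -2.05 ± 0.30 for Mmp14 and -1.96 ± 0.38 for Mmp13 (6 pairs). The Fscn1 class differed by -1.10 ± 0.34 for Mmp12 and by 0.14 ± 0.32 for Mmp14. The Prdm16 class differed by -2.01 ± 0.45 for Mmp12 and by 2.94 ± 0.51 for Mmp9, the latter higher in 2 of 5 pairs and lower in the other three. Mgl2 against Plet1 cells differed by -0.21 ± 0.43 for Mmp12. The first 4 contrasts share the Sirpa-only libraries. The SEs of class contrasts, here and below, come from 1 fit of 34 libraries of class and hashtag. They rest on a spread that edgeR estimates over all classes and shares over genes. They do not measure the spread of the hashtag pairs alone.

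A contrast that the choice of genes had not used was tested by splitting Sirpa-only cells on Itgae, the CD103 integrin that marks a DC subset of the gut. Cells with at least 2 Itgae UMIs were set against cells with none in hashtags 6, 8 and 9, the hashtags with at least 10 cells in both arms. Per the labels the hashtags are separate biological replicates. The fit of 6 libraries leaves 2 residual degrees of freedom (libraries beyond the fitted terms). Its p-values therefore rest also on a spread that edgeR shares over all genes, and not on these 3 hashtag pairs alone. Mmp12 stood at 621, 753 and 683 CPM in Itgae-positive cells and at 419, 598 and 493 CPM in Itgae-negative cells. It was higher in each hashtag, and the values of the 2 arms did not overlap across hashtags. In edgeR's quasi-likelihood test it rose by 0.54 ± 0.05 (log2, SE) with an adjusted p of 1.41e-06, higher in 3 of 3 hashtags. Its value in the depth range is not given here.

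Mmp13 and Mmp14 went the other way, at low levels. Mmp13 stood at 4.94, 3.21 and 1.5025 CPM in Itgae-positive cells and at 6.49, 6.76 and 12.6 CPM in Itgae-negative cells, with no overlap, and fell by 1.54 ± 0.37 (log2, SE; edgeR adjusted p = 0.0114, lower in 3 of 3 hashtags). Mmp14 stood at 2.78, 1.60 and 1.67 CPM against 5.81, 6.51 and 4.80 CPM, and fell by 1.40 ± 0.34 (edgeR adjusted p = 0.0116, lower in 3 of 3 hashtags). The T cells above, mostly of other hashtags, held Mmp13 at 3.49 CPM and Mmp14 at 4.07 CPM, from 6 and 7 UMIs. Both arms thus lie near the level of cells used as a reference for free RNA, whose part in these calls was not tested. Adamdec1 differed by -0.96 ± 0.37 (edgeR adjusted p = 0.142) and Mmp9, with 11 UMIs against 59, did not pass the filter on low counts. Thus 3 of the 4 members tested were called, where 8.14% of all 10290 genes were (5.85% higher and 2.29% lower). C1q UMIs in the arms stood at 8.64 to 10.7 CPM against 13.4 to 17.5 CPM, and in hashtag 9 a single Itgae-negative cell held 37 of 100 Mmp13 UMIs. Without Sirpa-only cells that had 3 or more C1q UMIs, an alternative chosen after seeing the data, Mmp13 and Mmp14 still fell, by 1.45 and 1.25 (edgeR adjusted p = 0.0343 and 0.0341). The Mmp13 call was lost without hashtag 9 (-0.59, edgeR adjusted p = 0.481), among cells of 5000 to 20000 UMIs (-0.90, adjusted p = 0.252) and without the hashtag as a block (-1.53, adjusted p = 0.0700). The Mmp14 call was lost without hashtag 8 (adjusted p = 0.0770), without hashtag 9 (adjusted p = 0.0941) and in that depth range (adjusted p = 0.0783), all from edgeR. Adamdec1 was called without hashtag 6 (-1.60, edgeR adjusted p = 0.00104).

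**Figure D4:**
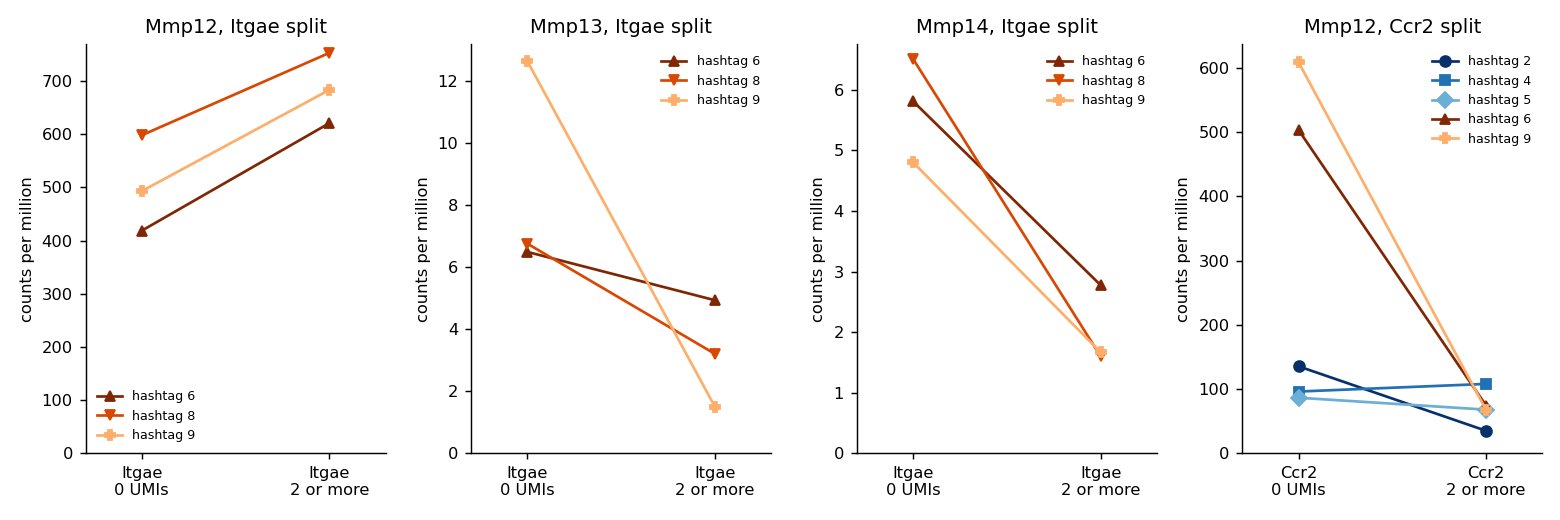
Level (CPM) of Mmp12, Mmp13 and Mmp14 in Sirpa-only cells without and with Itgae, and of Mmp12 without and with Ccr2, with 1 line per hashtag. Mmp12 is higher with Itgae in 3 of 3 hashtags and lower with Ccr2 in 4 of 5, while Mmp13 and Mmp14 are lower with Itgae in 3 of 3.

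Ccr2, the receptor for Ccl2 that marks monocytes and some type 2 DCs, gave the opposite direction for Mmp12. Sirpa-only cells with at least 2 Ccr2 UMIs held Mmp12 at 35.2, 108, 68.1, 74.1 and 67.5 CPM in hashtags 2, 4, 5, 6 and 9. Ccr2-negative cells of the same hashtags held 136, 96.3, 86.7, 503 and 609 CPM. The positive arms are small, 12 to 25 cells with 69 Mmp12 UMIs in all, and the arms of this split differed in depth too. Mmp12 fell by 1.92 ± 0.38 (log2, SE) with an edgeR adjusted p of 0.00313, lower in 4 of 5 hashtags and higher in hashtag 4. With 10 libraries and 4 residual degrees of freedom, this SE too rests in part on the spread shared over all genes. Mmp12 was 1 of 1 member tested, where 5.43% of 9434 genes were called (1.38% higher and 4.05% lower). Without the hashtag as a block the call was lost (-2.42, edgeR adjusted p = 0.287). Leaving out single hashtags moved the value between -2.48 and -1.39, with adjusted p-values of 0.000458 to 0.0234 in edgeR.

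Other genes of the protease network were counted from lists chosen with earlier results known, with calls at an adjusted p below 0.05 in edgeR's quasi-likelihood test. Of the 17 other matrix metalloproteinases listed, 5 passed the filter on low counts (Mmp2, Mmp19, Mmp23, Mmp25 and Mmp28). In the C1q class, where 30% of 12915 genes were called (16.8% higher and 13.2% lower), Mmp2 rose in 3 of 3 hashtags. This gelatinase, whose precursor Mmp14 activates, stood at 24.7, 20.6 and 21.6 CPM in hashtags 6, 8 and 9. It held 117 UMIs there against 3 in the Sirpa-only class, a ratio of 280 (95% exact interval 93.6 to 1379, counting error only). In the Prdm16 class (35.5% called, 16.5% higher and 19% lower) Mmp23 rose by 4.22 ± 0.33 and stood at 25.8 to 96.8 CPM. In the Fscn1 class (38.9% called, 18.4% higher and 20.5% lower) the membrane-anchored Mmp25 rose by 4.45 ± 0.28, to 80.4 to 149 CPM against 1.92 to 7.92 CPM, and Mmp23 rose by 3.34 ± 0.30. In the Xcr1/Clec9a class (43.3% called, 19.9% higher and 23.4% lower) Mmp28 rose by 2.70 ± 0.43. Between Mgl2 and Plet1 cells (0.496% called, 0.294% higher and 0.201% lower) Mmp25 was higher by 1.87 ± 0.40 in the Mgl2 cells (edgeR adjusted p = 0.0181). That call was lost without hashtag 6, 8 or 9 (adjusted p = 0.352, 0.197 and 0.283 in edgeR).

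Of the 5 inhibitors listed, 3 could be tested. Timp1, the inhibitor best known for binding Mmp9, was at 0 UMIs in all C1q class libraries and could not be tested. Timp2 stood at a median of 3.74 CPM in the C1q class against 0.11 CPM (edgeR adjusted p = 0.257). Reck, a membrane inhibitor of Mmp9, Mmp2 and Mmp14, held 0 UMIs in the C1q class (edgeR adjusted p = 0.139). In the Fscn1 class Reck rose by 2.45 ± 0.46, from a median of 0.95 to 4.63 CPM, and Timp3 rose by 3.66 ± 1.09. The Timp3 call rested on hashtag 8, at 168 CPM, and was lost without it (edgeR adjusted p = 0.249). In the Prdm16 class Reck rose by 1.95 ± 0.72, although it was higher in 3 of 5 hashtags only.

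Among 14 tested ADAM and ADAMTS genes, 3 rose and 1 fell in the C1q class, where 16.8% of all genes rose and 13.2% fell, so the count was near that background. The median was 0.23 against -0.05 over all genes. Adam33 rose by 5.27 ± 0.62, Adam19 by 1.62 ± 0.27 and Adam17, the sheddase of Tnf, by 1.33 ± 0.16, and Adam23 fell by 1.75 ± 0.25. In the Prdm16 class 3 rose and 4 fell (median -0.42 against -0.08), where 35.5% of all genes were called. Adam12 rose by 7.82 ± 0.54 and stood at 428, 451, 374, 343 and 275 CPM in hashtags 2, 4, 5, 6 and 9, against 0.50 to 9.59 CPM in the Sirpa-only class, and Adam8 rose by 1.71 ± 0.28. In the Fscn1 class 6 rose and 2 fell (median 0.44 against -0.05), where 38.9% of all genes were called, and Adam8 rose by 1.75 ± 0.25. In the Xcr1/Clec9a class 3 rose and 6 fell (median -0.57 against -0.02), where 43.3% of all genes were called, and Adam19 rose by 2.15 ± 0.24.

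Of 9 tested activators and surface partners, 3 rose and 1 fell in the C1q class, where 30% of all genes were called (median 0.04 against -0.05). Plau, the urokinase that turns plasminogen into plasmin, an activator of several metalloproteinase precursors, rose by 2.04 ± 0.31 to 243 to 328 CPM. Its receptor Plaur rose by 0.96 ± 0.21 and Bsg, an inducer of metalloproteinases, by 0.54 ± 0.15. Plaur was not called without hashtag 9 (edgeR adjusted p = 0.0662), nor Bsg without hashtag 6 or 9 (0.116 and 0.132). Serpinb2, an inhibitor of urokinase, fell by 1.92 ± 0.64, a call that was lost without hashtag 8 or 9. In the other 3 classes Plau and Plaur fell. Plau fell by 2.64 ± 0.52, 2.65 ± 0.31 and 2.01 ± 0.34 (its Prdm16 value, lower in 4 of 5 hashtags, was chosen after it was seen) and Plaur by 2.40 ± 0.29, 2.59 ± 0.19 and 1.45 ± 0.19 in the Prdm16, Xcr1/Clec9a and Fscn1 classes. Furin, which processes the Mmp14 precursor, differed by -0.44 ± 0.26 in the C1q class (edgeR adjusted p = 0.219), and Cd44, a surface docking site of Mmp9, by 0.70 ± 0.39 (adjusted p = 0.189). The convertase Pcsk5 rose by 5.33 ± 0.44 in the Xcr1/Clec9a class. In Itgae-positive Sirpa-only cells 2 of 8 tested activators rose, where 5.85% of all genes did: Plat, the tissue plasminogen activator, by 1.15 ± 0.23 and Plau by 0.29 ± 0.08. The Plau call there was lost without hashtag 6 or 9 (edgeR adjusted p = 0.0740 and 0.182). In Ccr2-positive cells 2 of 9 tested ADAM genes fell, where 4.05% of all genes did: Adam22 by 1.48 ± 0.25 and Adam23 by 1.36 ± 0.26.

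Of 18 AP-1, Runx and Ets factors, all tested, 6 rose and 3 fell in the C1q class (median -0.01 against -0.05), where 30% of all genes were called. Ets2 rose by 2.52 ± 0.19, Jun by 1.84 ± 0.29, Fos by 1.64 ± 0.26 and Runx2 by 1.40 ± 0.22. Fos and Jun are early response genes whose RNA can also rise during tissue digestion, and the part of handling was not tested. In the Xcr1/Clec9a class 2 rose and 11 fell (median -0.57 against -0.02), where 19.9% of all genes rose and 23.4% fell. Runx3 fell by 2.04 ± 0.19 and Fosl2 by 1.68 ± 0.14. In the Prdm16 class Runx1 fell by 3.24 ± 0.20 and Runx2 rose by 2.12 ± 0.19. In Itgae-positive Sirpa-only cells, where Mmp12 was higher, 7 of the 18 factors rose and 2 fell, against 5.85% and 2.29% of all genes. Atf3 rose by 0.30 ± 0.04, and Runx2 and Ets2 fell by 0.66 ± 0.10 and 0.64 ± 0.15. In Ccr2-positive cells 7 of 17 tested fell and none rose, against 4.05% and 1.38% of all genes, and Fosb fell by 1.15 ± 0.19 (5 of 5 hashtags).

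**Figure D5:**
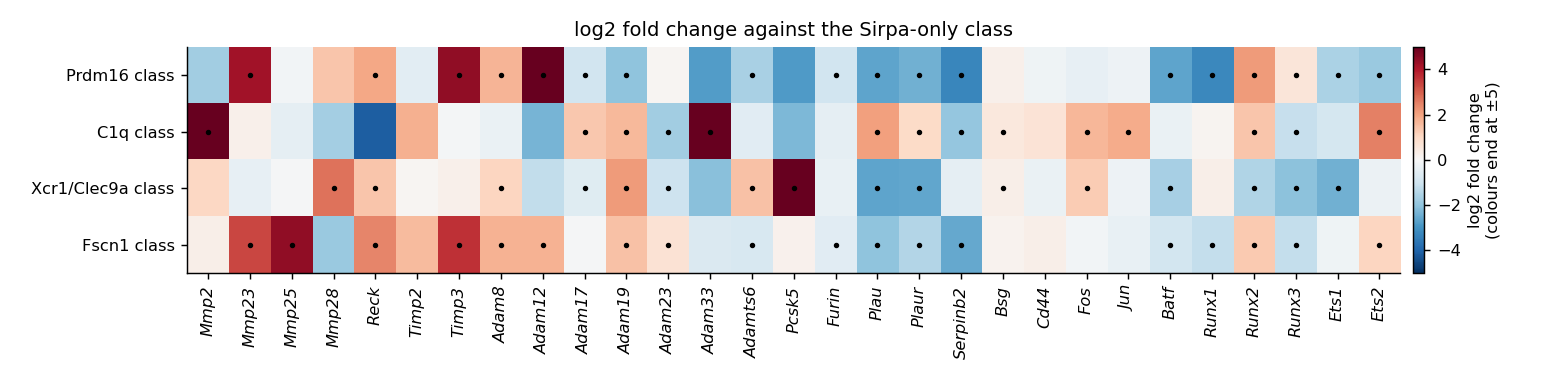
Fitted log2 fold change against the Sirpa-only class (colour, red higher, blue lower) of 29 protease-network genes (columns) in 4 classes (rows). Black dots mark an adjusted p of at most 0.05 in edgeR, and Plau and Plaur are higher in the C1q class and lower in the other 3 classes.

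The genes whose pattern was nearest to each member were found by Pearson correlation of log2(CPM + 1) over 34 libraries of class and hashtag, among 12930 genes. The libraries share 6 hashtags and differ in depth, so the values are descriptions. Cells positive for both Mgl2 and Plet1 were not among these libraries. Mmp12 was nearest to Trem1 (0.955), Pilra (0.935) and Ccr1 (0.933), surface receptors of myeloid cells. Mmp13 was nearest to Aspa (0.947), Itga9 (0.938) and the scavenger receptor Msr1 (0.934). Mmp14 was nearest to Mmp13 itself (0.904), then Itga9 (0.900) and Aspa (0.895). Adamdec1 was nearest to C1qb (0.948), a gene of the gate, then 5033421B08Rik and C5ar1 (both 0.945). Mmp9 was nearest to Prkar1b (0.920), Gm10874 (0.914) and Adrb1 (0.909). Among members, Mmp12 correlated with Mmp9 at 0.22 and with Mmp13, its neighbour in the genome, at 0.43, while Mmp9, Mmp13, Mmp14 and Adamdec1 correlated with each other at 0.79 to 0.90. Only 3 of the 34 libraries are of the C1q class, and the members were chosen for their levels in these classes. Correlations between members therefore restate those levels and add no separate support.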

How the data were processed

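RNA and hashtag libraries from the same droplets of 1 pool were counted with Cell Ranger 8.0.1 on mm10, per the submitters' processing notes. The authors deposited raw UMI counts for 3247803 barcodes and a table of hashtag assignments for 27679, with each call and its probability as a fraction, also made by the authors; 15 other columns were not used here. From these, 19239 barcodes had a single hashtag, and 15480 were kept after leaving out 1294 with under 500 genes and 3627 with over 10% mitochondrial UMIs, groups that overlap. Counts were summed per class and hashtag (at least 10 cells) and fitted over all genes with edgeR 4.0.16's quasi-likelihood test (TMM, filterByExpr, class and hashtag as terms, Benjamini-Hochberg adjustment). Per the labels each hashtag is 1 biological replicate, so the block pairs the classes of 1 replicate. In simulated counts for the C1q contrast, 91.3% of 196 genes changed 4-fold were recovered and 9 of 11374 unchanged genes were called. The simulation used 1 mean profile and 1 dispersion for all genes, without hashtag effects or other class differences. These rates therefore need not hold for the real counts. Members and gene lists were chosen with earlier results of these data known. Named by rule were at most 4 called genes per list and contrast, ranked by size of change and moving the same way in every hashtag pair, and 8 genes by role (Timp1, Timp2, Reck, Adam8, Adam17, Plaur, Cd44 and Furin). DESeq2 1.42.0, other scalings, filters and depth ranges were alternatives.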

Additional observations from a re-analysis of the deposited data

Results flagged for a closer look

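In 6 of 30 groups of 4 or more hashtags, 1 hashtag stood far from the others. The limits used flag about 1 in 20 groups of independent, normally distributed values. Levels from few UMIs are not such values, so that rate cannot be set against the 6 groups found. In the Prdm16 class, Mmp12 was at 242.3 CPM in hashtag 9 (150 UMIs, 77 of them in 1 cell), Adamdec1 at 7.85 CPM in hashtag 5 (3 UMIs in 3 cells) and Mmp13 at 6.63 CPM in hashtag 4 (2 UMIs in 2 cells). In the Fscn1 class of hashtag 8, Mmp13 was at 13.7 CPM and Mmp14 at 23.9 CPM, from 4 and 7 UMIs in 1 cell. In ungated cells of hashtag 8, Mmp13 was at 15.4 CPM (96 UMIs in 25 cells) and at 11.4 CPM without its highest cell, which held 6 C1q UMIs.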

How the results depend on the processing

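The alternatives were run for the genes named by size of change and for the members in the Itgae and Ccr2 splits. None of these fold changes reversed where it was called in the main fit or in the alternative. Other fold changes given above were not put through the alternatives. Counting each fold change that was run once under each alternative, a call was lost in 61 cases and gained in 2, and 23 of the losses came without the replicate block. Without the replicate block, 2330 genes were called for the C1q class, 3225 for Xcr1/Clec9a, 2916 for Fscn1, 6 for Mgl2 against Plet1, 288 for Itgae and 16 for Ccr2. With no filter on low counts, 151 were called for Mgl2 against Plet1 and 945 for Ccr2. DESeq2 called 130, 371 and 338 for Mgl2 against Plet1, Itgae and Ccr2, and cells of 5000 to 20000 UMIs gave 211 for Ccr2. The main counts were 3880, 5590, 5025, 64, 838 and 512 in the order of the first list, and 4581 for Prdm16. Leaving out 1 hashtag gave 2691 to 4024 (C1q), 4607 to 5334 (Xcr1/Clec9a), 3940 to 4872 (Fscn1), 3714 to 4481 (Prdm16), 12 to 51 (Mgl2 against Plet1), 556 to 785 (Itgae) and 222 to 587 (Ccr2). The share of calls that were higher went from 46.4% to 57.8% (Prdm16), 71.8% to 86.8% (Itgae) and 25.4% to 39.6% (Ccr2) with DESeq2, and from 59.4% to 73.2% (Mgl2 against Plet1) with relative log expression factors. For Prdm16 these scalings moved the median of all genes by 0.12 and 0.11 (log2). Of the members' levels, 360 stayed within their spread and 25 moved, 17 of them with overlapping gates. Where Mgl2 cells could also be C1q cells, Adamdec1 stood at 111.6 CPM in place of 3.14 CPM. The minimum of 20 cells was not run for Ccr2, since too few positive cells remained. The causes were not tested. Few UMIs lie behind the Itgae values of Mmp13 and Mmp14, 35 and 24 in the positive cells.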
